A study of Mus musculus with 36 samples.

Results

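The genes described are the Wnt ligands, their receptors and antagonists, and the first steps of the pathway inside the cell. The members are the rows of the count table whose symbol begins with Wnt, Fzd or Sfrp followed by a digit, plus Dkk1, Dkk2, Dkk3, Lrp5, Lrp6, Axin1, Axin2, Ctnnb1, Lef1, Tcf7, Tcf7l1, Tcf7l2 and Wif1, which gave 38 of 26400 rows. They comprise 14 ligands, 11 receptors, 6 antagonists, 2 members of the destruction complex and 5 transducers or transcription factors. The rule reads names alone, but the genes were picked with earlier results of these data known. RNA was sequenced from nuclei and cytoplasm of C1.1 and C166 cells, which were kept in normoxia or in hypoxia (1% O2) for 2h or 24h, with 3 libraries in each of 12 groups. C166 is a mouse endothelial line derived from yolk sac. C1.1 is a clonal line made from C166 with CRISPR-Cas9, from which a stretch of an Sfmbt2 intron with 1 of its mir-466c hairpins was removed. As the mutant is 1 clone, the deletion and other differences of that clone from its parent cannot be told apart. Whether each library had its own culture is not stated in the labels, so a p-value here is set by how far these libraries spread, which may be a technical spread.

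Wnt proteins are secreted lipid-modified ligands that bind Frizzled receptors, in the canonical branch together with the co-receptor Lrp5 or Lrp6. Without ligand, a complex that includes Axin1 holds beta-catenin (Ctnnb1) low by targeting it for degradation. With ligand, beta-catenin accumulates and acts in the nucleus with factors of the Tcf and Lef family on genes such as Axin2. Dkk1 binds Lrp5 and Lrp6 and blocks them, whereas Sfrp proteins and Wif1 bind the ligands. In endothelium the pathway is known for its part in the growth of the vessels of brain and retina, where Fzd4 and Lrp5 act.

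The libraries held 15314724 to 24940907 counts in the nucleus (n = 18) and 20745543 to 28667821 in the cytoplasm (n = 18). Levels are given in CPM, the usual depth-scaled count unit, after scaling with TMM factors within a fraction, and errors of means are SD over 3 libraries. The endothelial label was checked against 10 markers, of which 7 had a row. Pecam1, Cdh5, Kdr and Tie1 reached at most 0.171 CPM in any group, and Flt1 and Eng alone exceeded 1 CPM, the summed list being 1.39 to 5.74 CPM over the C1.1 libraries and 2.06 to 14.3 CPM over the C166 libraries. Of 8 smooth muscle and mesenchyme markers, 7 were above 1 CPM in every group, and their sum moved with line and hypoxia. In the cytoplasm it was 603 to 678 CPM in C1.1 after 24h of hypoxia against 1346 to 1540 CPM in normoxia, and 1125 to 1281 CPM in C166 after 24h against 4270 to 5810 CPM in normoxia. Acta2 made up most of this sum (361 ± 24.4 CPM after 24h and 1067 ± 106 CPM in normoxia in C1.1 cytoplasm), and the list did not move one way, since the means of Pdgfra (65.8 ± 10.8 and 42.8 ± 5.57 CPM), Pdgfrb, Dcn and Col1a1 in C1.1 cytoplasm were higher after 24h than in normoxia. For Dcn and Col1a1 the libraries of these times overlapped. In C166 cytoplasm the means of Pdgfrb and Col1a1 were higher after 24h, and those of Pdgfra and Dcn lower (Dcn 3.19 ± 1.79 and 18.5 ± 3.98 CPM). Blood and epithelial markers summed to at most 1.36 CPM. The part of these markers in the results below was not tested, and in such bulk RNA fewer cells of a type and less RNA per cell cannot be told apart. One library stood apart. In C166 cytoplasm normoxia replicate 1, 839 genes were listed at 0 where the other 2 libraries of its group each held at least 20 counts, against 0 to 39 genes in the other 35 libraries, and the members Fzd4, Dkk2 and Tcf7l1 were among them. Calls that were lost or gained without this library are named with their gene, and the values it moved most are given without it as well. The deleted hairpin was not analysed here, so the genotype was not checked on the counts.

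Of the 38 members, 20 exceeded 1 CPM as a group mean in at least 1 group, 15 in all 12 groups and 18 in none. Receptors made up most of those detected, with 10 of 11 above 1 CPM in at least 1 group, against 3 of 14 ligands (Wnt4, Wnt5a and Wnt9a) and 2 of 6 antagonists (Dkk1 and Dkk2). By group, 18 to 20 members exceeded 1 CPM in C1.1 and 15 to 17 in C166. Levels of different genes are compared only per kilobase of exon. On this scale Ctnnb1 was highest of the members in all 4 normoxic groups, at 134 ± 4.30 CPM per kb in C1.1 nucleus, 95.9 ± 3.09 in C166 nucleus, 80.6 ± 2.41 in C1.1 cytoplasm and 64.2 ± 9.25 in C166 cytoplasm (n = 3 each). Fzd7 was the highest Frizzled in the same 4 groups, at 16.4 ± 0.857, 24.9 ± 1.02, 8.69 ± 1.17 and 12.5 ± 0.935 CPM per kb in that order, although in C1.1 cytoplasm it lay within the spread of Fzd6 (8.33 ± 1.08 CPM per kb). Dkk1 was at 12.7 ± 2.49 CPM per kb in C1.1 nucleus, within the spread of Fzd6 (12.1 ± 0.572), whereas in C166 nucleus it was at 0.361 ± 0.0641 and Fzd6 at 12.7 ± 0.602. Among the remaining 18 members the highest group mean was 0.783 CPM (Wnt10b), and Wnt8b, Wnt16 and Wif1 had 1 count each over all 36 libraries. Of the 20 members above 1 CPM, 9 overlap another annotated gene (Axin1, Ctnnb1, Fzd3, Fzd5, Fzd6, Tcf7, Tcf7l1, Tcf7l2 and Wnt5a), and whether counting used strand is not given in the sources used here, so reads of a neighbour cannot be told apart from theirs. A total of 3 counts over a group corresponds to 0.0355 to 0.0569 CPM, which is the limit that a count of 0 allows, for counting error only.

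Of the 38 members, 26 had promoter windows in the RefSeq table of GRCm38.p6 (35 windows of 300 bases, 250 before to 50 after a start site). Each window was searched on both strands for CTTTGA or CTTTGT, the core bound by Tcf and Lef factors, and for ACGTG, the core bound by hypoxia-inducible factors. CTTTGA or CTTTGT occurred in 28.6% of the members' windows and 31.2% of all 32851 windows, or by gene in 10 of 26 members (38.5%) and 34.5% of all 27025 genes. ACGTG occurred in 7 of the members' 35 windows and 19.6% of all windows, or by gene in 7 of 26 members (26.9%) and 21.8% of all genes. These shares of the members were close to those of all windows. The windows of Dkk1 (chr19:30549447-30549746, minus strand) and Axin2 (chr11:108920099-108920398, plus strand) are printed 5′ to 3′, since Dkk1 had the largest changes after 24h of hypoxia among the members above 1 CPM and Axin2, a gene commonly read as a target of the pathway, was hardly detected. Capitals mark each CTTTGA or CTTTGT on either strand (TCAAAG is CTTTGA read on the other strand).
Dkk1: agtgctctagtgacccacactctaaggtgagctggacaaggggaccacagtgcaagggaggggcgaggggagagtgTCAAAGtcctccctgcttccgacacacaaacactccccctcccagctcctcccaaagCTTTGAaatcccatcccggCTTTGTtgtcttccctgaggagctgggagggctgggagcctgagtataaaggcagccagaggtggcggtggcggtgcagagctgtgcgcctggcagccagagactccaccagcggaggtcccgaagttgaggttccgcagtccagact
Axin2: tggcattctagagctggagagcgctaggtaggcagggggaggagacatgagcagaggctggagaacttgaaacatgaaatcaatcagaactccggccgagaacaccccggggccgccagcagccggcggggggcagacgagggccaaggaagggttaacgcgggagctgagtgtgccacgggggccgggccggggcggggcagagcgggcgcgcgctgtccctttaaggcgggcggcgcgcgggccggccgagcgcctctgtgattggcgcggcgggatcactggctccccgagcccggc
The Dkk1 window held 3 matches, the nearest of which began 98 bases before the start site, and the Axin2 window held none. Neither window held ACGTG. A match of these letters is a description of the window and not a measured binding site.

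In all, 14 comparisons were made, and a member was called at an edgeR adjusted p under 0.05 over all genes tested. Of the 38 members, 20 passed the low-count filter in the cytoplasm, 20 in the nucleus and 21 in the fit of both fractions. After 24h of hypoxia, more members were called higher than lower in each line and fraction. In C1.1 cytoplasm 6 members rose and 0 fell, beside 18% of all tested genes called higher and 18.1% called lower, and in C166 cytoplasm 6 rose and 1 fell (18.2% and 17.5% of all genes). Without C166 cytoplasm 24h hypoxia replicate 1 the count of C166 cytoplasm was 4, all higher. In C1.1 nucleus 10 rose and 2 fell (22.3% and 20.5% of all genes), and in C166 nucleus 8 rose and 1 fell (19.2% and 18.4% of all genes). The median log2 fold change of the members tested was 0.28 in C1.1 cytoplasm (0.03 over all genes), 0.27 in C166 cytoplasm (0.08), 0.50 in C1.1 nucleus (0.00) and 0.41 in C166 nucleus (0.00).

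After 2h of hypoxia few genes of any kind were called. In C1.1 nucleus 1 member rose (Dkk1) and 0 fell, beside 2.08% and 1.21% of all genes. In C1.1 cytoplasm none was called (1.09% of all genes higher and 0.86% lower), 1 had an unadjusted p under 0.05 and DESeq2 called 1, Tcf7l2. In C166 cytoplasm none was called (0.913% of all genes higher and 0.427% lower), 2 had an unadjusted p under 0.05 and DESeq2 called 1, Ctnnb1. In C166 nucleus none was called (1.37% of all genes higher and 0.928% lower), 6 had an unadjusted p under 0.05 and DESeq2 called 2, Dkk1 and Fzd6.

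Between the lines in normoxia, 6 members were higher and 3 lower in C1.1 cytoplasm than in C166 cytoplasm (18.2% and 17.3% of all genes), and 6 were higher and 4 lower in C1.1 nucleus than in C166 nucleus (18.8% and 21.2% of all genes). The members' median log2 fold change was 0.50 in the cytoplasm (0.06 over all genes) and 0.31 in the nucleus (0.02). The comparison between the lines and that of 24h of hypoxia in C166 share the normoxic C166 libraries, so their values are given side by side and not as 2 separate lines of evidence. Without C166 cytoplasm normoxia replicate 1, the comparison of the lines in the cytoplasm called 13 members, 9 higher and 4 lower in C1.1, with Fzd4 (0.72, adjusted p = 0.0162), Wnt4 (-0.63, adjusted p = 0.00732), Tcf7l1 and Tcf7l2 added. The response of C166 cytoplasm to 24h of hypoxia then still had 6 higher and 1 lower, but the calls of Fzd8 and Fzd5 were lost and those of Fzd4 (log2 fold change 0.87, adjusted p = 0.00431) and Fzd3 (-2.14, adjusted p = 0.00184) were gained.

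**Figure D1:**
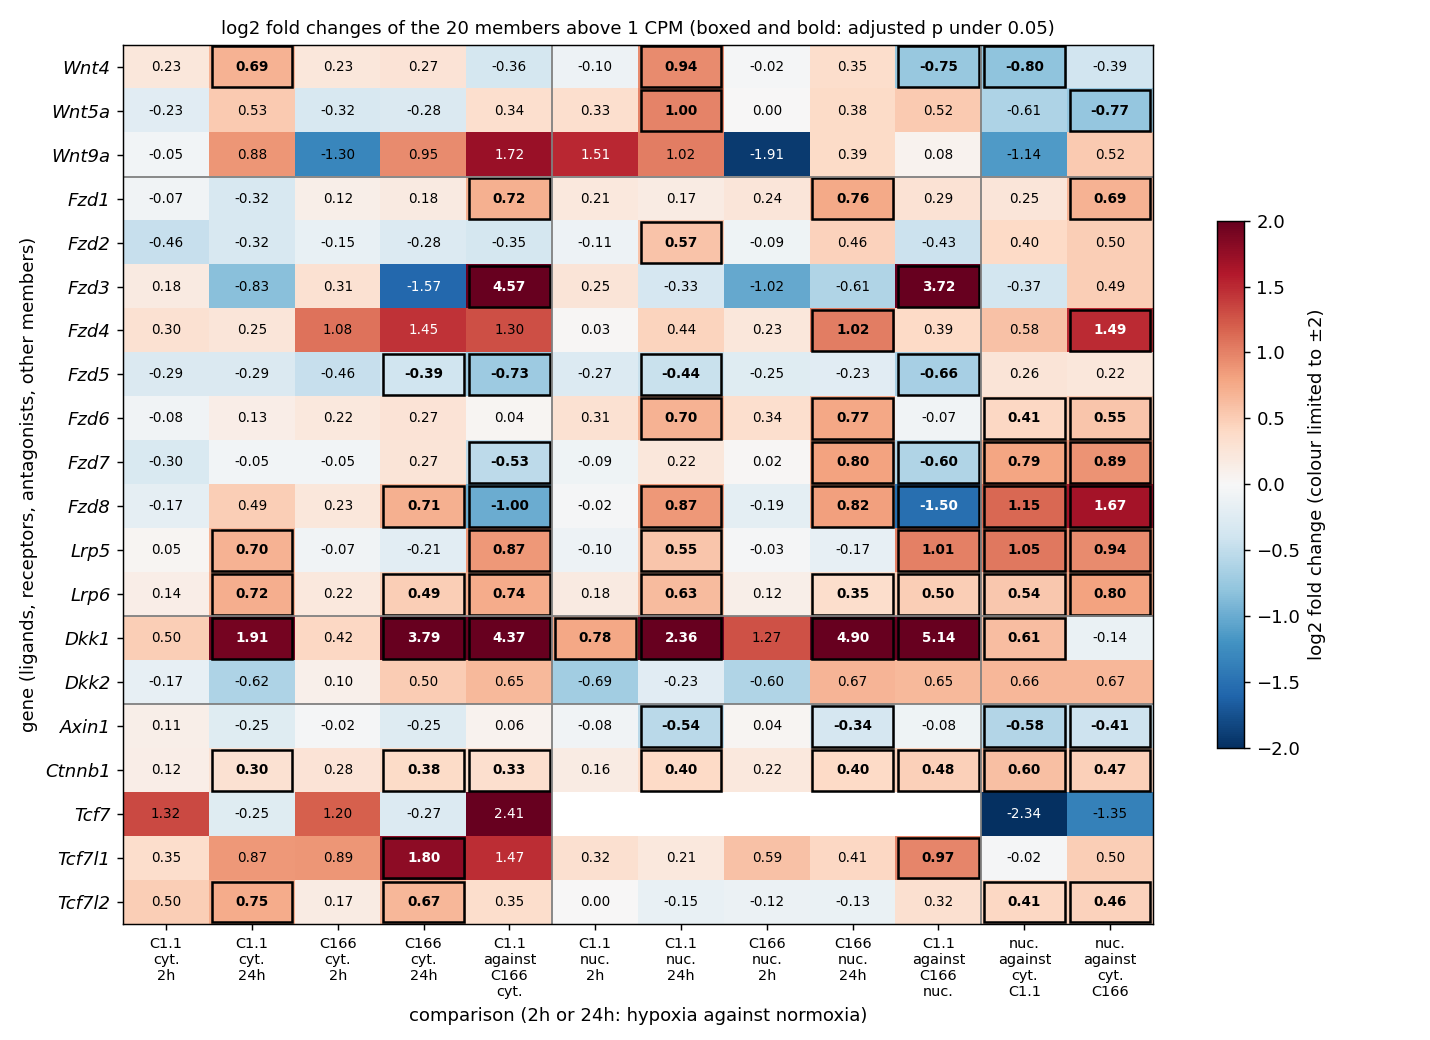
Log2 fold changes of the 20 members above 1 CPM in at least 1 group (rows, by role) in 12 comparisons (columns; 2h and 24h are hypoxia against normoxia), with colour limited to ±2 and boxes around values with an edgeR adjusted p under 0.05. Dkk1 has the largest values after 24h, with 3.79 in C166 cytoplasm and 4.90 in C166 nucleus after 24h of hypoxia, and Fzd3 has boxes in the columns that compare the lines alone (4.57 in cytoplasm and 3.72 in nucleus).

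Dkk1 (chr19:30545863-30549665, minus strand, GRCm38), the secreted antagonist of Lrp5 and Lrp6, had the largest changes after 24h of hypoxia of the members above 1 CPM. In C1.1 cytoplasm it was measured at 22.9, 15.6 and 17.1 CPM in the 3 normoxic libraries, at 26.9, 25.2 and 26.4 CPM after 2h and at 85.8, 64.8 and 59.0 CPM after 24h of hypoxia. The 24h libraries lay above all others of this line, and those at 2h lay above the normoxic ones. In C166 cytoplasm it was at 0.128, 1.43 and 1.07 CPM in normoxia, at 1.47, 1.66 and 0.300 CPM after 2h and at 12.8, 14.8 and 9.39 CPM after 24h. Here normoxia and 2h overlapped, and the 24h values stayed below every normoxic C1.1 library. In the nucleus the means also rose from normoxia to 2h and to 24h in each line. There, however, the 24h values of C166 overlapped the normoxic values of C1.1. In C1.1 nucleus Dkk1 was at 35.0, 24.0 and 33.7 CPM in normoxia, at 46.8, 63.0 and 49.2 CPM after 2h and at 175, 158 and 145 CPM after 24h. In C166 nucleus the values were 1.01, 0.916 and 0.704 CPM, then 1.45, 2.56 and 2.24 CPM and then 18.8, 34.7 and 24.7 CPM. All 3 times were apart from each other without overlap in both nuclei.

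Dkk1 rose 3.77-fold after 24h in C1.1 cytoplasm (log2 fold change 1.91 ± 0.33, adjusted p = 0.000116) and 13.8-fold in C166 cytoplasm (log2 fold change 3.79 ± 0.42, adjusted p = 8.39e-07), where ± gives the standard error. In the nucleus it rose 5.14-fold in C1.1 (log2 fold change 2.36 ± 0.17, adjusted p = 3.72e-11) and 29.8-fold in C166 (log2 fold change 4.90 ± 0.26, adjusted p = 8.82e-14). The smaller fold in C1.1 started from a higher normoxic level. Already after 2h Dkk1 rose in C1.1 nucleus (log2 fold change 0.78 ± 0.17, adjusted p = 0.00903), although this call was lost without replicate 2 of either group (adjusted p up to 0.0884), and in C166 nucleus the value was 1.27 ± 0.35 with an adjusted p of 0.0529. In normoxia Dkk1 was 20.7-fold higher in C1.1 than in C166 cytoplasm (log2 fold change 4.37 ± 0.43, adjusted p = 1.24e-07) and 35.3-fold higher in the nucleus (log2 fold change 5.14 ± 0.26, adjusted p = 2.42e-14). Without C166 cytoplasm normoxia replicate 1, where Dkk1 was lowest, the cytoplasmic value was 3.88, adjusted p = 2.87e-09, and the 24h value of C166 cytoplasm was 3.29, adjusted p = 4.92e-08. Each change of Dkk1 at 24h and between the lines passed the test under every alternative tried.

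**Figure D2:**
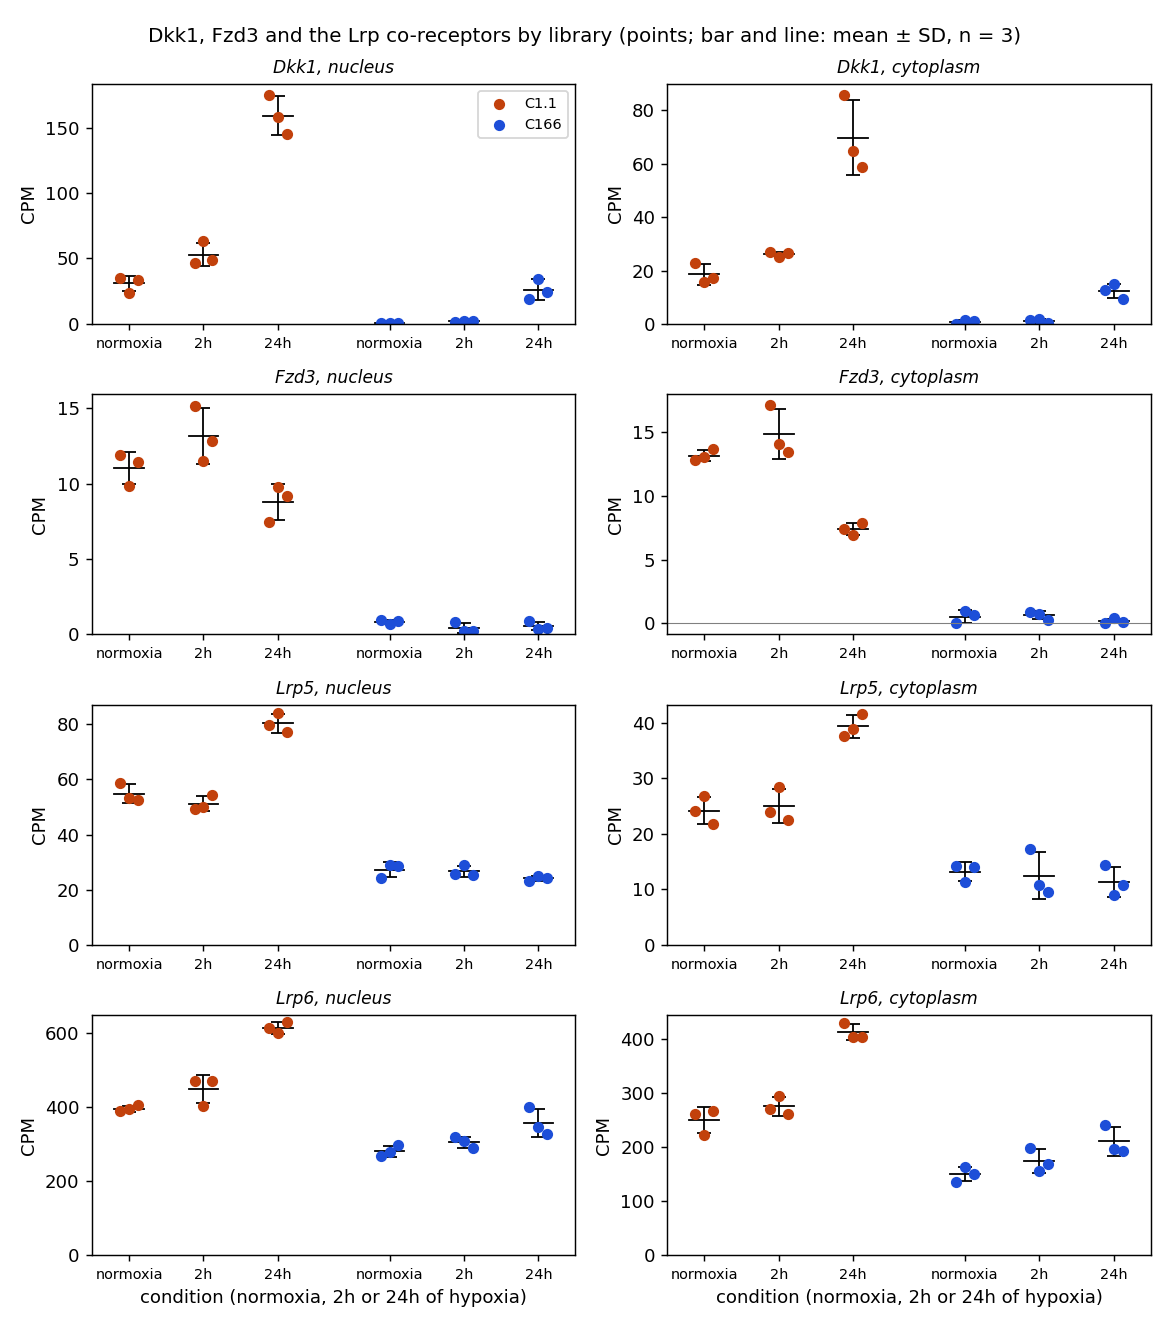
CPM of Dkk1, Fzd3, Lrp5 and Lrp6 in each library (points) of C1.1 and C166 by fraction and time (normoxia, 2h or 24h of hypoxia), with the mean and SD (n = 3). Dkk1 reaches 145 to 175 CPM in C1.1 nucleus after 24h against 18.8 to 34.7 CPM in C166 nucleus, and Fzd3 stays under 1 CPM in every C166 library.

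The test of the difference of the 24h responses (C1.1 minus C166) gave 1 member higher and 1 lower in the nucleus, beside 2.89% and 1.87% of all genes. These were Lrp5 (0.72 ± 0.14, adjusted p = 0.00265) and Dkk1 (-2.53 ± 0.34, adjusted p = 2.63e-05), so the log2 increase of Dkk1 was smaller in C1.1 nucleus than in C166 nucleus. In the cytoplasm no member was called (1.39% of all genes higher and 0.94% lower), 2 had an unadjusted p under 0.05 and DESeq2 called 1, Lrp5. The cytoplasmic values were of the same sign, at -1.87 ± 0.54, adjusted p = 0.0721 for Dkk1 and 0.91 ± 0.28, adjusted p = 0.0978 for Lrp5. Of the transducers, the differences were -0.0016 ± 0.11, adjusted p = 1 for Ctnnb1, -0.19 ± 0.35, adjusted p = 0.82 for Tcf7l1 and -0.01 ± 0.18, adjusted p = 0.986 for Tcf7l2 in the nucleus. In the cytoplasm they were -0.08 ± 0.12, adjusted p = 0.794 for Ctnnb1, -0.93 ± 0.87, adjusted p = 0.651 for Tcf7l1, 0.08 ± 0.21, adjusted p = 0.899 for Tcf7l2 and 0.02 ± 1.24, adjusted p = 1 for Tcf7. Without C166 cytoplasm normoxia replicate 1 the cytoplasmic differences were -1.38, adjusted p = 0.0572 for Dkk1, -0.35, adjusted p = 0.748 for Tcf7l1, 0.59, adjusted p = 0.895 for Tcf7 and 0.02, adjusted p = 0.961 for Ctnnb1. Leaving out C166 nucleus 24h hypoxia replicate 1 raised the nuclear count to 4, with Fzd7 and Lrp6 added.

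Dkk2, the other antagonist above 1 CPM, was low, with group means of 0.920 to 2.56 CPM, and was called in no comparison. Sfrp4, Dkk3, Sfrp1 and Wif1 had group means of at most 0.315 CPM. Of the 6 antagonists, Dkk1 alone had a called change with all libraries.

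Fzd3 (chr14:65192449-65262463, minus strand), a Frizzled known from axon guidance and planar cell polarity, separated the lines. In normoxia it was at 12.8, 13.0 and 13.6 CPM in C1.1 cytoplasm, against 0, 0.975 and 0.643 CPM in C166 cytoplasm. In the nucleus it was at 11.9, 9.87 and 11.4 CPM in C1.1 and at 0.947, 0.687 and 0.866 CPM in C166. No library of one line came near those of the other. The difference was 23.8-fold in the cytoplasm (log2 fold change 4.57 ± 0.60, adjusted p = 5.86e-06) and 13.2-fold in the nucleus (log2 fold change 3.72 ± 0.32, adjusted p = 7.44e-10), and without C166 cytoplasm normoxia replicate 1 the cytoplasmic log2 value was 4.00, adjusted p = 6.94e-09. After 24h of hypoxia Fzd3 was at 7.39, 6.89 and 7.87 CPM in C1.1 cytoplasm, below all normoxic libraries, and the test gave -0.83 ± 0.49, adjusted p = 0.209.

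Fzd8, Fzd7 and Fzd5 were lower in C1.1 than in C166 in both fractions. Fzd8 in the nucleus was at 13.6, 12.8 and 12.3 CPM in normoxic C1.1 and at 37.1, 31.4 and 41.0 CPM in normoxic C166, without overlap (log2 fold change -1.50 ± 0.17, adjusted p = 6.65e-08). In the cytoplasm it was at 5.81, 5.69 and 4.51 CPM in C1.1 and 6.62, 10.7 and 14.6 CPM in C166 (log2 fold change -1.0 ± 0.27, adjusted p = 0.00613). C166 cytoplasm normoxia replicate 1 was here the lowest of its group, and without it the value was -1.24, adjusted p = 0.000106. This call was lost without C166 cytoplasm normoxia replicate 3 and when only the 6 libraries compared were fitted (adjusted p up to 0.119). Fzd7 in the nucleus was at 77.9, 70.2 and 74.9 CPM in C1.1 and 108, 114 and 117 CPM in C166 (log2 fold change -0.60 ± 0.15, adjusted p = 0.00189), again without overlap. In the cytoplasm Fzd7 was at 44.7, 39.4 and 34.0 CPM in C1.1 and 53.6, 61.5 and 54.9 CPM in C166 (log2 fold change -0.53 ± 0.19, adjusted p = 0.0354), a call that was lost without any of 4 of the 6 libraries (replicates 2 and 3 of either line). Fzd5 was at 33.9, 34.5 and 41.7 CPM in C1.1 nucleus and 59.3, 56.5 and 58.2 CPM in C166 nucleus (log2 fold change -0.66 ± 0.15, adjusted p = 0.000754), and at 28.8, 28.4 and 27.1 CPM in C1.1 cytoplasm and 58.5, 39.9 and 41.3 CPM in C166 cytoplasm (log2 fold change -0.73 ± 0.15, adjusted p = 0.00072). In neither fraction did the lines overlap for Fzd5. Fzd1 went the other way in the cytoplasm, with 15.3, 14.6 and 15.7 CPM in C1.1 and 8.11, 10.2 and 9.43 CPM in C166 (log2 fold change 0.72 ± 0.18, adjusted p = 0.00422).

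Of the 8 Frizzled genes tested in each fraction, 3 rose and 1 fell after 24h of hypoxia in C1.1 nucleus (beside 22.3% and 20.5% of all genes), and 5 rose and 0 fell in C166 nucleus (19.2% and 18.4%). In C166 cytoplasm Fzd8 rose and Fzd5 fell (18.2% and 17.5% of all genes). In C1.1 cytoplasm edgeR called 0 of them (18% and 18.1% of all genes), 0 had an unadjusted p under 0.05 and DESeq2 called 0, whereas a fit of only the libraries compared called Fzd3 and Fzd5, and leaving out C1.1 cytoplasm 24h hypoxia replicate 1 called Fzd2. In C166 cytoplasm Fzd3, under 1 CPM in every C166 library, was called lower with DESeq2, with no filter and without 24h replicate 2. The same call was gained without normoxic replicate 1, as given before. The difference between the fractions itself was not tested. Fzd6, known from hair follicle orientation, was at 91.6, 93.2 and 100.2 CPM in C1.1 nucleus after 24h and 61.6, 56.9 and 56.8 CPM in normoxia (log2 fold change 0.70 ± 0.10, adjusted p = 3.32e-06). In C166 nucleus the values were 109, 103 and 101 CPM after 24h and 59.7, 59.5 and 64.7 CPM in normoxia (log2 fold change 0.77 ± 0.10, adjusted p = 1.02e-06). In both lines every 24h library lay above every normoxic one. Fzd8 was at 30.1, 22.4 and 18.3 CPM after 24h in C1.1 nucleus, above the normoxic libraries given before (log2 fold change 0.87 ± 0.17, adjusted p = 0.000148), and at 48.0, 71.5 and 73.5 CPM in C166 nucleus (log2 fold change 0.82 ± 0.16, adjusted p = 0.000177). In C166 cytoplasm Fzd8 was at 16.4, 19.8 and 15.9 CPM after 24h (log2 fold change 0.71 ± 0.26, adjusted p = 0.0392), a call lost without C166 cytoplasm normoxia replicate 1 (0.46, adjusted p = 0.113), without replicate 2 of that group and without each of the 3 libraries at 24h. A fit of only the libraries compared lost this Fzd8 call as well. Fzd5 in C166 cytoplasm was at 34.4, 40.0 and 31.9 CPM after 24h (log2 fold change -0.39 ± 0.15, adjusted p = 0.0438), and this call too was lost without the normoxic replicate 1 (-0.20, adjusted p = 0.261), without replicate 1 or 3 at 24h, and with the other scalings. The Fzd5 call was also lost with no filter on low counts and with only the libraries compared.

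With edgeR and all libraries, Fzd7, Fzd1 and Fzd4 were called at 24h in C166 nucleus and in no other line or fraction, though the difference from C1.1 did not pass the test for any of them (adjusted p = 0.11, 0.0585 and 0.298). That difference passed under some alternatives, for Fzd1 with DESeq2, with upper-quartile factors and without C1.1 nucleus normoxia replicate 2, and for Fzd7 with no filter on low counts, without C1.1 nucleus 24h hypoxia replicate 1 and without C166 nucleus 24h hypoxia replicate 1. Fzd4 was also called at 24h in C1.1 nucleus with no filter or with only the libraries compared, and in C166 cytoplasm with no filter, without normoxic replicate 1 and without normoxic replicate 2. Fzd7 was at 143, 267 and 181 CPM in C166 nucleus after 24h, above the normoxic libraries given before (log2 fold change 0.80 ± 0.15, adjusted p = 8.88e-05). Fzd4, a receptor of retinal vessels, was at 14.1, 25.1 and 11.7 CPM after 24h and 7.64, 8.53 and 8.93 CPM in normoxia (log2 fold change 1.02 ± 0.21, adjusted p = 4e-04). For both genes replicate 2 was the highest at 24h, and without it the log2 values were 0.52 for Fzd7 and 0.62 for Fzd4, still called. Fzd1 was at 27.9, 28.4 and 25.4 CPM after 24h and 16.2, 15.1 and 16.9 CPM in normoxia (log2 fold change 0.76 ± 0.13, adjusted p = 3.3e-05). In C1.1 nucleus Fzd2 was at 49.9, 30.6 and 26.8 CPM after 24h and 22.2, 24.6 and 25.1 CPM in normoxia (log2 fold change 0.57 ± 0.21, adjusted p = 0.0263), with replicate 1 far above the others at 24h. The call was lost without that library, without any normoxic library of the group and with DESeq2 (adjusted p up to 0.341). In C166 nucleus Fzd2 was at 12.1 ± 3.43 CPM per kb after 24h and 8.82 ± 1.11 in normoxia. It was called higher there with no filter, with upper-quartile factors and without 24h replicate 1. Fzd5 fell in C1.1 nucleus, to 32.2, 26.9 and 21.9 CPM after 24h against 33.9, 34.5 and 41.7 CPM in normoxia (log2 fold change -0.44 ± 0.15, adjusted p = 0.0186), and this call was lost without replicate 3 of either group. In C166 nucleus Fzd5 was called lower at 24h without C166 nucleus 24h hypoxia replicate 2.

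Summed over the 9 Frizzled rows per kilobase, C1.1 nucleus held 73.9, 62.2 and 57.9 CPM per kb after 24h (64.7 ± 8.26) and 49.7 ± 1.74 in normoxia. C166 nucleus held 85.1, 127 and 100.5 CPM per kb after 24h (104 ± 21.3) and 66.2 ± 1.35 in normoxia (n = 3 each). In both lines the 24h libraries lay above all normoxic ones, and the sum of C166 was above that of C1.1 in normoxia. In the cytoplasm the sums overlapped between 24h and normoxia, at 30.4 ± 3.92 and 32.2 ± 2.41 in C1.1 and 41.2 ± 5.78 and 37.6 ± 2.21 CPM per kb in C166. Fzd7 was the largest share of the sum in normoxia, with 33.0% ± 0.798 in C1.1 nucleus and 37.6% ± 1.27 in C166 nucleus, followed by Fzd6 with 24.4% ± 1.02 and 19.2% ± 0.533. The share of Fzd3 in normoxia was 1.74% ± 0.110 in C1.1 nucleus and 0.0982% ± 0.0150 in C166 nucleus. In normoxic cytoplasm this share was 3.2% ± 0.34 in C1.1 and 0.108% ± 0.0991 in C166. The gain of Fzd3 in C1.1 was thus a small part of the Frizzled sum in normoxia. Sums were given as a description and were not tested.

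**Figure D3:**
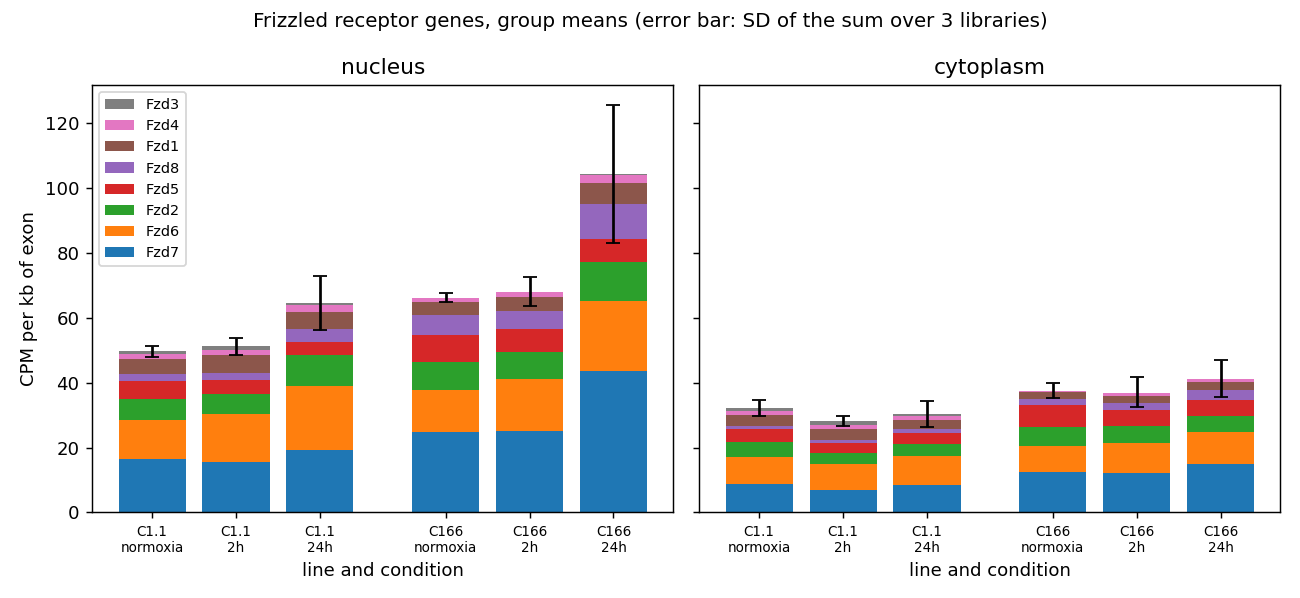
Stacked mean CPM per kb of 8 Frizzled genes (all but Fzd9, which is near 0) in C1.1 and C166 by fraction and time (normoxia, 2h or 24h of hypoxia), with error bars for the SD of the sum over 3 libraries. The nuclear sum averages 64.7 in C1.1 and 104 in C166 after 24h, against 49.7 and 66.2 CPM per kb in normoxia, and Fzd7 and Fzd6 make up the largest blocks.

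Both co-receptors were higher in C1.1 than in C166. Lrp6 (chr6:134446476-134566965, minus strand) in normoxia was at 262, 222 and 267 CPM in C1.1 cytoplasm and 136, 163 and 150.4 CPM in C166 cytoplasm (log2 fold change 0.74 ± 0.11, adjusted p = 1.85e-05). In the nucleus it was at 389, 395 and 405 CPM in C1.1 and 268, 278 and 298 CPM in C166 (log2 fold change 0.50 ± 0.08, adjusted p = 2.42e-05). The lines did not overlap in either fraction. After 24h of hypoxia Lrp6 rose in all 4 settings, to 429, 404 and 404 CPM in C1.1 cytoplasm (log2 fold change 0.72 ± 0.11, adjusted p = 1.84e-05) and 241, 197 and 193 CPM in C166 cytoplasm (log2 fold change 0.49 ± 0.11, adjusted p = 0.00121). In the nucleus it reached 613, 599.9 and 630.5 CPM in C1.1 (log2 fold change 0.63 ± 0.08, adjusted p = 6.47e-07) and 399.6, 346 and 327 CPM in C166 (log2 fold change 0.35 ± 0.08, adjusted p = 0.00149). Every 24h library lay above every normoxic library of its own line and fraction, and none of these Lrp6 calls was lost under any alternative.

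Lrp5 (chr19:3584828-3686564, minus strand), which acts beside Lrp6, rose at 24h in C1.1 but was not called in C166. In C1.1 nucleus it was at 79.5, 84.0 and 77.3 CPM after 24h and 58.9, 53.3 and 52.4 CPM in normoxia (log2 fold change 0.55 ± 0.10, adjusted p = 5.09e-05). In C166 nucleus it was at 23.1, 25.0 and 24.4 CPM after 24h and 24.1, 28.9 and 28.7 CPM in normoxia (log2 fold change -0.17 ± 0.10, adjusted p = 0.201). The 24h libraries were thus the highest in C1.1, and in C166 they lay at the lower edge of the normoxic ones. In C1.1 cytoplasm Lrp5 was at 37.7, 38.8 and 41.6 CPM after 24h and 24.1, 26.7 and 21.8 CPM in normoxia (log2 fold change 0.70 ± 0.20, adjusted p = 0.00767), and in C166 cytoplasm at 14.4, 9.05 and 10.7 CPM and 14.3, 11.2 and 14.1 CPM (log2 fold change -0.21 ± 0.20, adjusted p = 0.442). Between the lines in normoxia Lrp5 was 1.83-fold higher in C1.1 cytoplasm (log2 fold change 0.87 ± 0.20, adjusted p = 0.00193) and 2.01-fold higher in C1.1 nucleus (log2 fold change 1.01 ± 0.10, adjusted p = 9.52e-09).

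Of the ligands, Wnt4, known from kidney and ovary development, was the highest per kilobase (2.96 ± 0.482 CPM per kb in C1.1 cytoplasm and 3.79 ± 1.48 in C166 cytoplasm, normoxia). In C1.1 nucleus it was at 15.9, 16.8 and 12.2 CPM after 24h of hypoxia and 7.75, 7.63 and 7.92 CPM in normoxia (log2 fold change 0.94 ± 0.18, adjusted p = 0.000116). In C166 nucleus it was at 13.0, 16.1 and 21.0 CPM after 24h and 13.6, 12.7 and 12.9 CPM in normoxia (log2 fold change 0.35 ± 0.17, adjusted p = 0.115). The times did not overlap in C1.1, and they did in C166. Without replicate 1 at 24h, Wnt4 was called higher after 24h in C166 nucleus as well. In normoxia Wnt4 was lower in C1.1 nucleus than in C166 nucleus (log2 fold change -0.75 ± 0.18, adjusted p = 0.00152), and the difference of the 24h responses was 0.59 ± 0.25, adjusted p = 0.188. In C1.1 cytoplasm Wnt4 was at 16.5, 19.5 and 24.0 CPM after 24h and 10.5, 12.1 and 14.5 CPM in normoxia (log2 fold change 0.69 ± 0.23, adjusted p = 0.0237), a call lost without replicate 3 at 24h or without replicate 1 or 2 in normoxia.

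Wnt5a, a ligand mostly studied in beta-catenin-independent signalling, rose in C1.1 nucleus, to 6.55, 5.97 and 6.45 CPM after 24h against 2.78, 3.21 and 3.50 CPM in normoxia (log2 fold change 1.00 ± 0.27, adjusted p = 0.00426). In C166 nucleus it was at 2.87, 3.87 and 1.87 CPM after 24h and 2.43, 2.58 and 1.62 CPM in normoxia (log2 fold change 0.38 ± 0.29, adjusted p = 0.318), with overlap. The difference between the lines was 0.62 ± 0.40, adjusted p = 0.428. Wnt10b, below 1 CPM in every group, was at 0.722, 0.770 and 0.857 CPM in C1.1 nucleus after 24h and 0.157, 0.182 and 0 CPM in normoxia (log2 fold change 2.77 ± 1.05, adjusted p = 0.0355), and this call was lost without any 1 of the 6 libraries. In C166 nucleus Wnt10b was called higher at 24h when C166 nucleus 24h hypoxia replicate 1 was left out. Wnt9a had group means of 0.125 to 2.02 CPM and was called in no comparison with edgeR and all libraries. Without C166 cytoplasm normoxia replicate 2, it was called higher in normoxic C1.1 cytoplasm than in C166 cytoplasm. The other 10 ligands had group means of at most 0.218 CPM and were not tested. The sum over the 14 Wnt rows was 5.06 ± 0.578 CPM per kb in C1.1 nucleus after 24h and 2.51 ± 0.0886 in normoxia, against 4.89 ± 1.23 and 3.66 ± 0.167 in C166 nucleus at the same times.

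Ctnnb1, which encodes beta-catenin, was higher in C1.1 and rose at 24h in both lines by modest folds. In the nucleus it was at 818, 968 and 964 CPM after 24h and 676, 686 and 719 CPM in normoxia in C1.1 (log2 fold change 0.40 ± 0.08, adjusted p = 0.000115). In C166 nucleus it was at 616, 656 and 704 CPM after 24h and 514, 482 and 498 CPM in normoxia (log2 fold change 0.40 ± 0.08, adjusted p = 0.000139). The changes in the 2 lines were nearly equal in size. In the cytoplasm Ctnnb1 was at 509, 505 and 533 CPM after 24h and 419, 405 and 430.3 CPM in normoxia in C1.1 (log2 fold change 0.30 ± 0.09, adjusted p = 0.00849), and at 453, 439 and 413 CPM and 283, 338 and 379 CPM in C166 (log2 fold change 0.38 ± 0.09, adjusted p = 0.00152). Between the lines in normoxia the values were 0.33 ± 0.09, adjusted p = 0.00546 in the cytoplasm and 0.48 ± 0.08, adjusted p = 1.45e-05 in the nucleus, and the cytoplasmic call was lost when only the 6 libraries compared were fitted. After 2h the values were 0.12 ± 0.09 in C1.1 cytoplasm, 0.28 ± 0.09 in C166 cytoplasm, 0.16 ± 0.08 in C1.1 nucleus and 0.22 ± 0.08 in C166 nucleus (adjusted p = 0.624, 0.148, 0.31 and 0.184 in that order).

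**Figure D4:**
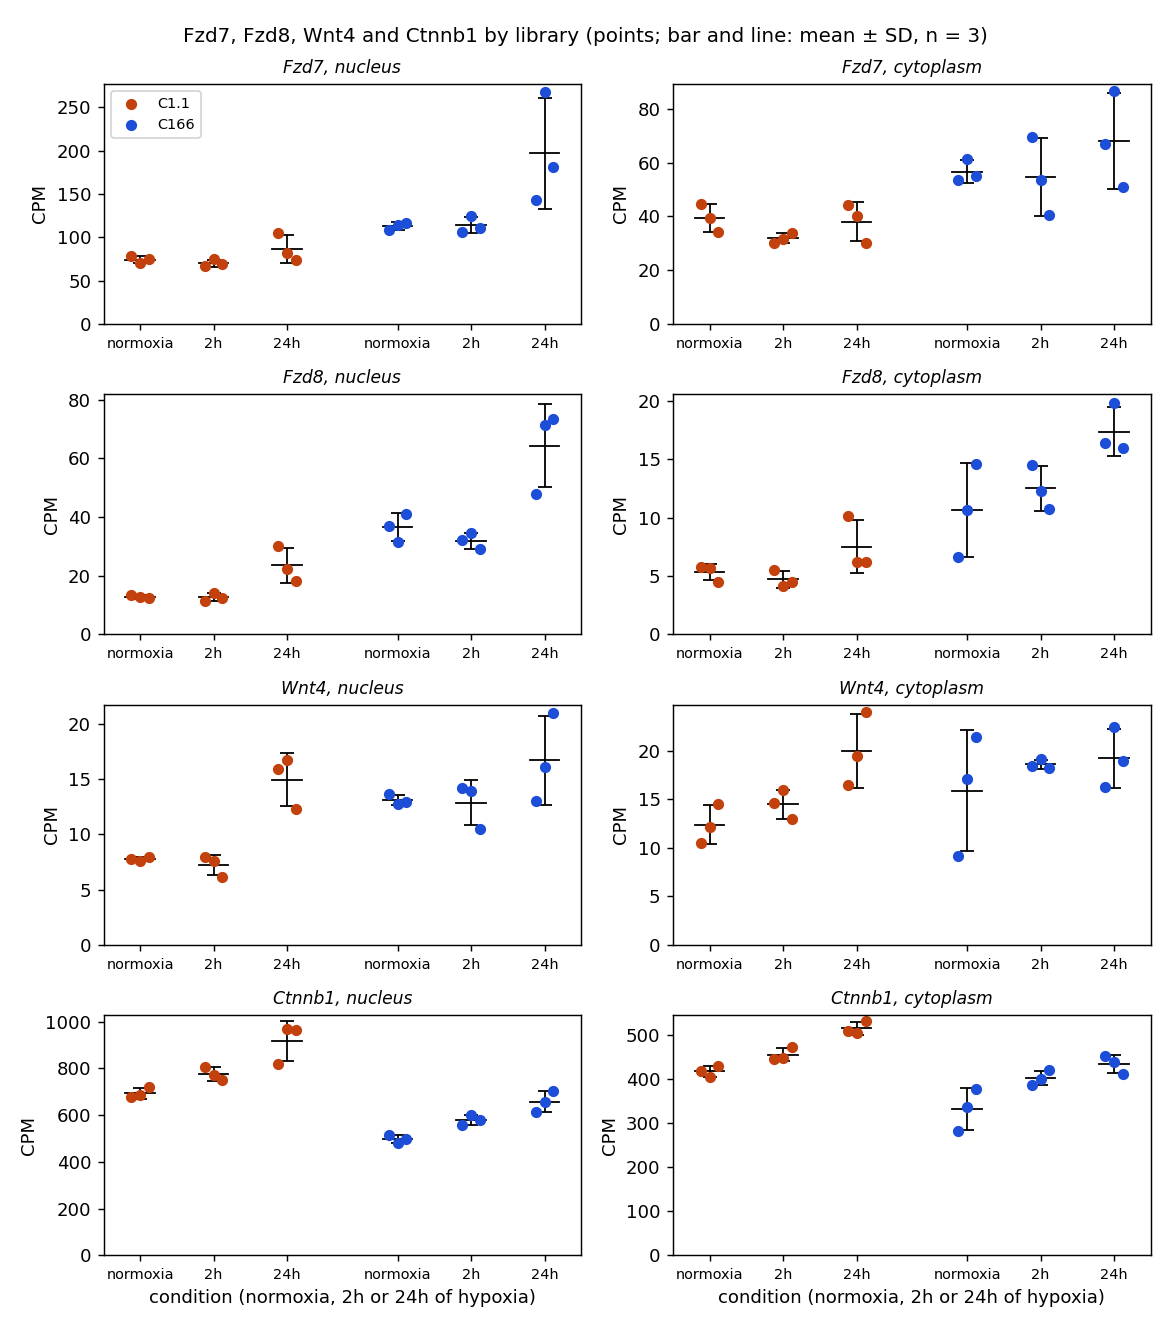
CPM of Fzd7, Fzd8, Wnt4 and Ctnnb1 in each library (points) of C1.1 and C166 by fraction and time (normoxia, 2h or 24h of hypoxia), with the mean and SD (n = 3). Fzd8 is lower in C1.1 than in C166 at each time in the nucleus (23.6 and 64.4 CPM on average after 24h), and Ctnnb1 is higher (917 and 658 CPM).

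Axin1, the scaffold of the destruction complex, fell in the nucleus at 24h. It was at 63.0, 54.4 and 54.8 CPM in C1.1 nucleus after 24h and 82.0, 85.7 and 81.9 CPM in normoxia (log2 fold change -0.54 ± 0.10, adjusted p = 0.000164). In C166 nucleus it was at 69.8, 66.8 and 71.8 CPM after 24h and 87.7, 96.4 and 80.1 CPM in normoxia (log2 fold change -0.34 ± 0.10, adjusted p = 0.0109), a call lost without normoxic replicate 2. The times did not overlap in either nucleus. In the cytoplasm the values were -0.25 ± 0.11, adjusted p = 0.0896 in C1.1 and -0.25 ± 0.11, adjusted p = 0.0865 in C166. The fall was called in C1.1 cytoplasm without 24h replicate 2 and with only the libraries compared. It was called in C166 cytoplasm without replicate 2 of either time. For Axin1 the difference between the fractions at 24h was not tested.

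Among the Tcf factors, Tcf7l2 rose at 24h in the cytoplasm of both lines. It was at 33.3, 29.8 and 28.6 CPM after 24h and 18.6, 16.1 and 19.9 CPM in normoxia in C1.1 cytoplasm (log2 fold change 0.75 ± 0.15, adjusted p = 0.000442), and at 22.0, 21.8 and 24.4 CPM and 15.4, 11.9 and 15.5 CPM in C166 cytoplasm (log2 fold change 0.67 ± 0.15, adjusted p = 0.00154). No 24h library overlapped a normoxic one. In the nucleus the values were -0.15 ± 0.13, adjusted p = 0.395 in C1.1 and -0.13 ± 0.13, adjusted p = 0.466 in C166, and whether the fractions differ was not tested. Between the lines Tcf7l2 gave 0.35 ± 0.15, adjusted p = 0.0769 in the cytoplasm (0.41, adjusted p = 0.0424 without C166 cytoplasm normoxia replicate 1) and 0.32 ± 0.13, adjusted p = 0.0506 in the nucleus. After 2h it gave 0.50 ± 0.15, adjusted p = 0.0909 in C1.1 cytoplasm, 0.17 ± 0.15, adjusted p = 0.637 in C166 cytoplasm, 0.0046 ± 0.13, adjusted p = 0.998 in C1.1 nucleus and -0.12 ± 0.13, adjusted p = 0.87 in C166 nucleus.

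Tcf7l1, mostly a repressor of the family, was higher in C1.1 nucleus, at 7.59, 7.93 and 7.04 CPM against 5.39, 3.26 and 2.87 CPM in C166 nucleus in normoxia (log2 fold change 0.97 ± 0.25, adjusted p = 0.0028). In the cytoplasm it was at 7.37, 6.56 and 6.98 CPM in C1.1 and 0, 3.30 and 4.20 CPM in C166 (log2 fold change 1.47 ± 0.63, adjusted p = 0.077), or 0.90, adjusted p = 0.0394 without the C166 library listed at 0, and it was also called without C166 cytoplasm normoxia replicate 3 and with no filter. In C166 cytoplasm it was at 13.6, 6.70 and 5.87 CPM after 24h (log2 fold change 1.80 ± 0.64, adjusted p = 0.033). Without that normoxic library this value was 1.22, adjusted p = 0.00618, and the call was lost without replicate 1 at 24h, with DESeq2 and with only the libraries compared (adjusted p up to 0.289). The other 24h values of Tcf7l1 were 0.87 ± 0.60, adjusted p = 0.294 in C1.1 cytoplasm, 0.21 ± 0.24, adjusted p = 0.503 in C1.1 nucleus and 0.41 ± 0.25, adjusted p = 0.216 in C166 nucleus. At 2h they were 0.35 ± 0.60, adjusted p = 0.933 in C1.1 cytoplasm, 0.89 ± 0.64, adjusted p = 0.549 in C166 cytoplasm, 0.32 ± 0.24, adjusted p = 0.573 in C1.1 nucleus and 0.59 ± 0.25, adjusted p = 0.348 in C166 nucleus.

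Tcf7, Lef1 and Axin2, which are themselves commonly read as targets of the pathway, were at the edge of detection. Over its 18 libraries each, Tcf7 had 303 counts in C1.1 (17 libraries with a count) and 62 in C166 (9 libraries). It was tested in the cytoplasm, where the lines gave 2.41 ± 1.25, adjusted p = 0.143, 24h of hypoxia -0.25 ± 1.14, adjusted p = 0.902 in C1.1 and -0.27 ± 1.33, adjusted p = 0.898 in C166, and 2h 1.32 ± 1.13, adjusted p = 0.746 in C1.1 and 1.20 ± 1.26, adjusted p = 0.695 in C166. Between the lines Tcf7 was called higher in C1.1 cytoplasm without C166 cytoplasm normoxia replicate 2. Axin2 had 2 counts in C1.1 (2 of 18 libraries) and 53 in C166 (12 of 18), and Lef1 had 1 count in C1.1 and 82 in C166 (15 of 18 libraries). Fzd9 showed the same split, with 2 counts in C1.1 and 79 in C166. These 3 genes failed the low-count filter. With no filter Fzd9 was called lower in C1.1 nucleus than in C166 nucleus, and Axin2 and Lef1 were called between the lines in neither fraction, and no count in any library exceeded 21.

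In normoxia 8 members were higher and 2 lower in nucleus than in cytoplasm of C1.1 (28.6% and 29% of all genes), and 9 were higher and 2 lower in C166 (31.8% and 26.2% of all genes). The members' median log2 ratio was 0.41 in C1.1 (0.03 over all genes) and 0.50 in C166 (0.17). These ratios are on CPM scaled with TMM factors over both fractions, a scale relative to the depth of each library. RLE factors moved the median of all genes to 0.24 in C1.1 and 0.29 in C166. Fzd8 was at 13.1, 12.4 and 11.8 CPM in nucleus and 6.14, 5.97 and 4.74 CPM in cytoplasm of C1.1 (log2 fold change 1.15 ± 0.23, adjusted p = 4.64e-05), and averaged 35.4 ± 4.80 CPM in nucleus and 11.1 ± 4.35 CPM in cytoplasm of C166 (SD, n = 3; log2 fold change 1.67 ± 0.22, adjusted p = 3.77e-08). Lrp5 was at 56.6, 51.6 and 50.4 CPM in nucleus and 25.5, 28.1 and 22.9 CPM in cytoplasm of C1.1 (log2 fold change 1.05 ± 0.15, adjusted p = 2.63e-07), and in C166 the value was 0.94 ± 0.16, adjusted p = 3.7e-06. For both genes the fractions did not overlap. The other members higher in the nucleus of both lines were Fzd7 (0.79 in C1.1 and 0.89 in C166), Lrp6 (0.54 and 0.80), Ctnnb1 (0.60 and 0.47), Fzd6 (0.41 and 0.55) and Tcf7l2 (0.41 and 0.46), all as log2 ratios in the same order of lines.

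Axin1 was lower in the nucleus, at 78.8, 82.8 and 78.8 CPM against 110.4, 120.1 and 129 CPM in cytoplasm of C1.1 (log2 fold change -0.58 ± 0.11, adjusted p = 2.08e-05), and -0.41 ± 0.11, adjusted p = 0.00167 in C166. Wnt4 was lower in the nucleus of C1.1, at 7.46, 7.38 and 7.63 CPM against 11.1, 12.7 and 15.3 CPM in the cytoplasm (log2 fold change -0.80 ± 0.22, adjusted p = 0.00213), and the value in C166 was -0.39 ± 0.22, adjusted p = 0.121, or -0.68, adjusted p = 0.0023 and thus called without C166 cytoplasm normoxia replicate 1. Dkk1 was higher in the nucleus of C1.1 (log2 fold change 0.61 ± 0.26, adjusted p = 0.0408), a call lost without any of 5 of the 6 libraries, all but cytoplasm replicate 1. In C166 Fzd4 (1.49 ± 0.45, adjusted p = 0.00515), Fzd1 (0.69 ± 0.15, adjusted p = 0.000227) and Wnt5a (-0.77 ± 0.33, adjusted p = 0.0473) were also called. Without C166 cytoplasm normoxia replicate 1 the value of Fzd4 was 0.91, adjusted p = 0.00208, Fzd5 was called (0.40, adjusted p = 0.0283) and Wnt5a was not. The Fzd4 call was lost when only the libraries compared were fitted. The Wnt5a call was lost under 10 of 12 alternatives, that of Fzd6 in C1.1 without any of the 3 nuclear libraries, and that of Tcf7l2 without single libraries in both lines. Tcf7l1 gave -0.02 ± 0.48, adjusted p = 0.986 in C1.1 and 0.50 ± 0.51, adjusted p = 0.418 in C166 (-0.09, adjusted p = 0.846 without that library), and Tcf7 gave -2.34 ± 1.28, adjusted p = 0.119 and -1.35 ± 1.54, adjusted p = 0.466.

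A list of 56 further pathway genes, which had 53 rows, was read beside the members. Of 40 tested in the cytoplasm, 10 rose and 4 fell after 24h in C1.1 (beside 18% and 18.1% of all genes), and 7 rose and 5 fell in C166 (18.2% and 17.5%). Of 39 tested in the nucleus, 11 rose and 8 fell in each line (22.3% and 20.5% of all genes in C1.1, 19.2% and 18.4% in C166). The list's median log2 fold change was 0.11 in C1.1 cytoplasm, 0.06 in C166 cytoplasm and within 0.01 of 0 in both nuclei, close to the medians of all genes given before. Rspo3, a secreted agonist that raises Frizzled and Lrp levels at the membrane, rose after 24h in C1.1 cytoplasm (log2 fold change 1.27 ± 0.15, adjusted p = 1.75e-06), in C1.1 nucleus (log2 fold change 1.63 ± 0.10, adjusted p = 1.16e-12) and in C166 nucleus (log2 fold change 0.84 ± 0.10, adjusted p = 2e-07). Its 24h response was larger in C1.1 in both fractions (difference 0.98 ± 0.22, adjusted p = 0.0182 in the cytoplasm and 0.79 ± 0.14, adjusted p = 0.000938 in the nucleus). Rspo3 was the one listed gene called for that difference in the cytoplasm, and in the nucleus Adgra2 and Pygo1, a gene of low counts, were also higher and Tle1 and Tle3 lower. Tnks, which destabilises Axin, rose in the cytoplasm of C1.1 (log2 fold change 0.83 ± 0.11, adjusted p = 4.63e-06) and C166 (log2 fold change 1.08 ± 0.11, adjusted p = 2.36e-07), and so did Bcl9l, a beta-catenin co-activator (1.14 and 1.45). The genes that fell in C1.1 cytoplasm were Lgr4, Znrf3, Tle1 and Ror2, and those that fell in C166 cytoplasm were Adgra2, Lgr4, Wls, Znrf3 and Nkd2.

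Between the lines, 8 of the 40 listed genes were higher and 8 lower in C1.1 cytoplasm (18.2% and 17.3% of all genes), and 9 of 39 were higher and 10 lower in C1.1 nucleus (18.8% and 21.2%), counts near those shares. Leading the cytoplasm were Prickle2 (1.97) and Tle3 (1.00), higher in C1.1, and Ryk (-0.71) and Tle4 (-1.80), lower in C1.1, as log2 fold changes. Ryk is a Wnt co-receptor, Prickle2 a planar polarity protein, and the Tle proteins are co-repressors of Tcf factors. In the nucleus Apc2 was higher (1.99) and Tle1, Ryk and Tle4 were lower (-1.01, -0.94 and -1.75).

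A list of 14 genes commonly read as targets of beta-catenin, 4 of them members (Dkk1, Axin2, Lef1 and Tcf7), did not move one way at 24h. Znrf3 stood both on this list and on that of the further pathway genes. In the nucleus, of 7 tested, Dkk1 and Wisp1 rose and Ccnd1, Myc, Znrf3 and Apcdd1 fell in each line. Of all genes tested in the nucleus, 22.3% rose and 20.5% fell in C1.1, and 19.2% rose and 18.4% fell in C166. Ccnd1, a cyclin of the early cell cycle, changed by -0.68 ± 0.08, adjusted p = 2.14e-07 in C1.1 and -0.82 ± 0.08, adjusted p = 1.05e-08 in C166, and Wisp1, a secreted matrix protein, by 0.86 ± 0.12, adjusted p = 1.22e-06 in C1.1 and 0.58 ± 0.11, adjusted p = 0.000246 in C166. In the cytoplasm, of 8 tested, Dkk1 and Wisp1 rose and Ccnd1, Apcdd1, Znrf3 and Myc fell in C1.1 (18% and 18.1% of all genes). In C166 cytoplasm Dkk1 rose and Ccnd1 and Znrf3 fell (18.2% and 17.5% of all genes). The list's median was -0.58 in C1.1 nucleus (0.00 over all genes), -0.46 in C166 nucleus (0.00), -0.27 in C1.1 cytoplasm (0.03) and -0.12 in C166 cytoplasm (0.08). Between the lines in normoxia, Dkk1 was higher and Wisp1 lower in C1.1 in both fractions, and Ccnd1 was lower in C1.1 nucleus (-0.32 ± 0.08, adjusted p = 0.00256). Of all genes, 18.2% were higher and 17.3% lower in C1.1 cytoplasm, and 18.8% and 21.2% in C1.1 nucleus.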

How the data were processed

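Total RNA depleted of ribosomal RNA was sequenced with a stranded kit from the nuclear and the cytoplasmic fraction of C1.1 and C166 cells, with 3 libraries in each of 12 groups. The authors deposited a table of raw read counts per gene, which was analysed here. Its 36 columns of normalized counts, and its columns with the authors' own DESeq2 fold changes and p-values, were not used. The submitters' processing notes name Bowtie2 2.2.2, TopHat2 2.0.11, Cufflinks 2.2.1, Cuffdiff, featureCounts and edgeR with the build GRCm38, without their roles, and the tool that made these counts and its strand setting are not given in the sources used here. Libraries were grouped by GEO's labels.

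Counts were tested in R 4.3.3 with edgeR 4.0.16 (quasi-likelihood F-test, filterByExpr by group, TMM factors, Benjamini-Hochberg adjustment over all genes tested, threshold 0.05). Nucleus and cytoplasm had a fit each (18 libraries, 6 groups), and a joint fit of 36 libraries served for nucleus against cytoplasm. The filter kept 14998 genes in the cytoplasm, 15735 in the nucleus and 16682 in both. The fits were also run on simulated counts with the same spread for every gene and fraction, unlike these data. That run is not used as support here. Standard errors are the size of the log2 fold change over the square root of F. CPM per kb divides by the length of the merged exons. Alternatives were DESeq2 1.42.0, RLE and upper-quartile factors, no filter, a fit of only the libraries compared, a replicate block, and each library left out. The block was the replicate number within a line, and in the joint fit within a line and time. Members and gene lists were chosen with earlier results of these data known. Named were members called in any comparison, and Ctnnb1, Tcf7, Tcf7l1 and Tcf7l2 in all of them.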

Additional observations from a re-analysis of the deposited data

Results flagged for a closer look

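Both members whose 24h response differed between the lines in the nucleus by the test of the difference itself were looked at again. The Dkk1 response was smaller in C1.1 than in C166 (difference of log2 fold changes -2.53 ± 0.34, adjusted p = 2.63e-05), with nuclear folds of 5.14 in C1.1 and 29.8 in C166. On the linear scale the order was the other way, with a mean of 159 ± 15 CPM after 24h and 30.9 ± 6.03 CPM in normoxia in C1.1, against 26.1 ± 8.04 CPM and 0.875 ± 0.155 CPM in C166 (SD, n = 3). The Lrp5 response was larger in C1.1 than in C166 (difference 0.72 ± 0.14, adjusted p = 0.00265), and 3 of 3 libraries of C1.1 nucleus at 24h lay above all normoxic ones, with 80.3 ± 3.42 CPM after 24h and 54.9 ± 3.51 CPM in normoxia. In C166 nucleus Lrp5 was at 24.2 ± 0.943 CPM after 24h and 27.2 ± 2.71 CPM in normoxia. Both differences kept their call under all 18 alternatives, with log2 values of -2.72 to -2.28 for Dkk1 and 0.66 to 0.83 for Lrp5.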

How the results depend on the processing

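Over the 14 comparisons 77 changes of members were called, of which 57 kept their call under every alternative tried, 20 lost it under at least 1 and 0 reversed. Of 936 refitted values 863 kept their side of the threshold and 73 lost the call, 50 of these among the 474 values that left out a library. These totals include the block fit, whose comparison of the lines is limited as described below. With DESeq2 the number of members called became 1 in C166 cytoplasm at 2h, 1 in C1.1 cytoplasm at 2h, 2 in C166 nucleus at 2h and 1 for the cytoplasmic difference of the 24h responses, each 0 with edgeR. With no filter on low counts the cytoplasmic difference gave 2 and C166 nucleus at 2h gave 1, and RLE and upper-quartile factors also gave 1 in C166 nucleus at 2h. A fit of only the libraries compared gave 4 in place of 7 in C166 cytoplasm at 24h, 10 in place of 6 in C1.1 cytoplasm at 24h, 3 in place of 0 in C1.1 cytoplasm at 2h, 1 in place of 0 in C166 nucleus at 2h and 16 in place of 10 for nucleus against cytoplasm of C1.1. The cause of these shifts was not tested.

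Leaving out 1 library gave 5 to 7 members called in C1.1 cytoplasm at 24h, 4 to 8 in C166 cytoplasm at 24h, 0 to 0 in C1.1 cytoplasm at 2h and 0 to 1 in C166 cytoplasm at 2h. In the nucleus it gave 9 to 11 in C1.1 and 8 to 12 in C166 at 24h, and 0 to 1 in C1.1 and 0 to 3 in C166 at 2h (3 without C166 nucleus 2h hypoxia replicate 1). Between the lines it gave 8 to 13 in the cytoplasm and 10 to 11 in the nucleus, and for the difference of the 24h responses 0 to 1 and 2 to 4. For nucleus against cytoplasm it gave 7 to 10 in C1.1 and 9 to 12 in C166. Members above 1 CPM in at least 1 group numbered 20 to 21.

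Libraries with the same replicate number did not deviate together (correlations from -0.05 to 0.087, all under 0.1), so the numbers were not taken to pair them. With the replicate number within a line as a block, Tcf7l1 was lost in C166 cytoplasm at 24h. With the block of the joint fit, Wnt5a was lost for nucleus against cytoplasm of C166. Between the lines the block fit called 5 members in place of 9 in the cytoplasm (Fzd5, Fzd7, Fzd8 and Ctnnb1 lost), and Fzd5 was lost in the nucleus (adjusted p = 0.0619). As the block lies within a line, this fit set C1.1 and C166 against each other at different replicate numbers. The losses between the lines therefore cannot show whether the difference of the line means holds with a block. The block also gave 1 in place of 0 for the cytoplasmic difference and 1 in place of 0 in C166 nucleus at 2h.

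Under RLE or upper-quartile factors C166 cytoplasm at 24h had 6 members higher and 0 lower, in place of 6 and 1, and under upper-quartile factors the nuclear difference had 1 higher and 2 lower, in place of 1 and 1. These factors moved the median of all genes from 0.03 to 0.24 and 0.23 for nucleus against cytoplasm of C1.1, RLE factors from 0.17 to 0.29 for C166, and upper-quartile factors from 0.02 to 0.12 between the lines in the nucleus. Depth limits the 18 members under 1 CPM, most of which were not tested.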
